A study of Mus musculus with 6 samples.

Results

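The genes described here are 7 regulators of spermatogonial differentiation: Dmrt1, Dmrtb1, Sohlh1, Sohlh2, Stra8, Lmo1 and Ly6k. They were picked by name, and found by matching the Ensembl identifier of each row to its GENCODE M21 symbol. All 7 had a row among the 22432 genes of the authors' deposited table. The 6 samples were total RNA of germline stem cells grown from male mice, which renew themselves and can enter the path to sperm. The 3 CDH1+/THY1+ samples carry E-cadherin and the glycoprotein THY1 on their surface, and the 3 CDH1-/THY1+ samples carry THY1 alone. Both populations came from the same 3 cultures at passage 6 to 8, grown on DR4 feeder fibroblasts: RP7 (age label 8 weeks) and RP5 (19 days), of the strain labelled OCT4/GFP with Dox-OCT4, and WT1 (5 weeks) of C57BL/6. The 3 samples of a population thus differ in age, and 1 of the 3 in strain. The table holds no value per sample, and the direction of its fold changes, CDH1+/THY1+ over CDH1-/THY1+, is known from its name only.

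In the postnatal testis, undifferentiated spermatogonia become differentiating spermatogonia when retinoic acid, made from vitamin A, reaches them. DMRT1 and DMRTB1 bind DNA through a zinc finger module called the DM domain. In mouse spermatogonia, DMRT1 is known to repress Stra8 and activate Sohlh1, which delays meiosis, and DMRTB1 (also called DMRT6) helps to end the mitotic programme before meiosis. SOHLH1 and SOHLH2 are basic helix-loop-helix factors of germ cells that pair with each other and act at the start of differentiation. STRA8 is induced by retinoic acid and is needed for entry into meiosis. LMO1 is a LIM-only protein, which bridges transcription factors without binding DNA itself. LY6K is a membrane-anchored protein of germ cells that associates with TEX101 and is needed for sperm to pass into the oviduct in mice.

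Promoter windows of 300 bases, from 250 before to 50 after each start, are listed by RefSeq (GRCm38.p6) for 5 of the 7 genes, as 7 windows in all. Entries were found for Dmrtb1, Sohlh1, Sohlh2, Stra8 and Lmo1, and none for Dmrt1 and Ly6k. The windows of Stra8, Sohlh1 and Sohlh2 are shown because DMRT1 is known to act on the first 2 of these genes, and the third is the partner of Sohlh1. They lie at chr6:34920698-34920997 (plus strand), chr2:25847199-25847498 (minus strand) and chr3:55181794-55182093 (plus strand). The Stra8 window lies wholly inside the GENCODE gene, which begins upstream of it at 34920163, and 1 window of Dmrtb1 also lies inside its gene. Positions are counted from the RefSeq start. Each is written 5′ to 3′ on the strand of the gene. Capitals mark matches, on either strand, to the E-box CANNTG bound by helix-loop-helix factors, to ACANTGT from the core of the DM domain motif, and to the retinoic acid receptor half-site AGGTCA.
Stra8: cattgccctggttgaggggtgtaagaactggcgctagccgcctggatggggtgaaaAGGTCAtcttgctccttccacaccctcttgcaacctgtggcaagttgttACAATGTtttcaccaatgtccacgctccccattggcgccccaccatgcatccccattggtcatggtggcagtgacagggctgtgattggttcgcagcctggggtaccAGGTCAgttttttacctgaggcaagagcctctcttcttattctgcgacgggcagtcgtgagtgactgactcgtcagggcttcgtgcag
Sohlh1: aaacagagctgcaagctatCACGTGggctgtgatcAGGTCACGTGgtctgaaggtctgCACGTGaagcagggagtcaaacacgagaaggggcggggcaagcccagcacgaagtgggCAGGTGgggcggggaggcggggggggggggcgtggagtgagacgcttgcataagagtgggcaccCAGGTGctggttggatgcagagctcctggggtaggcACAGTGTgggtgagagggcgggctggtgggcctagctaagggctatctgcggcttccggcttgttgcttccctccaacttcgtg
Sohlh2: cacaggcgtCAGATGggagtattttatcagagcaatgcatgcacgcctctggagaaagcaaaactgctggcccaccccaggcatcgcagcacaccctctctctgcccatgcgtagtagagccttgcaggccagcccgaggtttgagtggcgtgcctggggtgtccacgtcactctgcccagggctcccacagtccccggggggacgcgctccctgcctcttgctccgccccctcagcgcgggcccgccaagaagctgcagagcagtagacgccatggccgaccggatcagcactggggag

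The Stra8 window held 2 half-sites, which begin 194 and 38 bases before the start, and 1 match to the DM core, ACAATGT, which begins 145 bases before it. It held 0 E-boxes. The Sohlh1 window held 1 half-site at 215 bases, 1 DM core match, ACAGTGT, at 34 bases, and 5 E-boxes. Of the 5 E-boxes, 3 read CACGTG, and the middle one of these shares bases with the half-site. The Sohlh2 window held 1 E-box, CAGATG, and no match to either other motif. Among all 32851 windows of this length, 72.3% held an E-box, 7.54% the DM core and 16.3% a half-site. Both the DM core and a half-site were present in 1.23% of windows, and Stra8 and Sohlh1 were the 2 genes of the 5 that had both. The 2 windows of Dmrtb1 had 3 E-boxes each, those of Lmo1 had 1 each, and none of these 4 held a DM core or half-site. CACGTG occurred 3 or more times in 0.0883% of windows, a count made after its letters had been seen. A match describes letters only, and binding was not measured.

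The comparison asked how RNA of these regulators differs between cells that carry both surface proteins and cells that carry THY1 alone. Both DM domain genes, both Sohlh genes and Lmo1 were lower in CDH1+/THY1+ cells, by 2.28-fold to 4.51-fold. Stra8 had a 1.84-fold lower value that did not pass the test, and Ly6k, with few reads, had a value above 0 that did not pass. By the authors' deposited table, 5 of the 7 genes were thus called lower at an adjusted p under 0.05 (DESeq2) and 0 higher, against 16.4% lower and 17.1% higher of the 19211 genes with an adjusted p-value (33.5% called in either direction). All 5 were lower by at least 2-fold, as were 6.54% of tested genes. The median log2 fold change of the 7 genes was -1.38, and that of all tested genes was 0.01. The fold changes analysed reach down to -2.94 but stop sharply at 2.14 on the other side. Genes above that value were not analysed here, so each share, rank, median and count of higher genes describes the rows below it, and a listed gene without a row may lie above it. Cdh1 itself has no row, which leaves the direction unchecked. A smaller share of germ cells and less RNA per germ cell cannot be told apart in bulk samples.

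**Figure D1:**
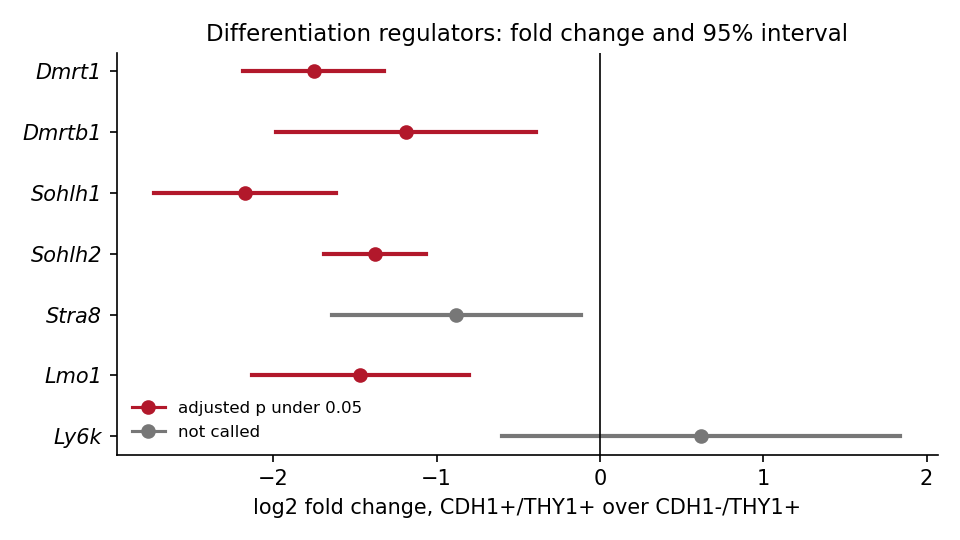
Log2 fold change of each regulator (x axis), with CDH1+/THY1+ cells over CDH1-/THY1+ cells, from the authors' deposited table. Points are the fold changes and lines the 95% intervals (1.96 standard errors to each side, not adjusted for multiple testing). The 5 called genes, in red, have intervals wholly below 0, Stra8 has an interval that ends at -0.12, and that of Ly6k spans 0.

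Dmrt1 (chromosome 19, 25505618 to 25604329 in GRCm38, plus strand) was the most abundant of the 7. Its mean normalised count, the reads scaled for library depth and averaged over all 6 libraries, was 4983 in the authors' deposited table. The deposited mean and fold change give population means of 2279 in CDH1+/THY1+ cells and 7686 in CDH1-/THY1+ cells. These computed means take the libraries of both populations as equally many, and they carry the error of the fold change. The log2 fold change in the authors' deposited table was -1.75 ± 0.22 (standard error, 3 against 3 samples), a 3.37-fold lower level (adjusted p = 1.3e-13, DESeq2). Of the 200 genes nearest in mean count, 0% had a lower fold change and 95 were called in either direction.

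Dmrtb1 (chromosome 4, 107676290 to 107684230, minus strand) was far less abundant, with a mean count of 105 in the authors' deposited table. Its computed means were 64.1 in CDH1+/THY1+ cells and 146 in CDH1-/THY1+ cells. It had a log2 fold change of -1.19 ± 0.41 and the weakest call of the 5 in the authors' deposited table (adjusted p = 0.0128, DESeq2). The 95% interval ran from -1.98 to -0.39, and the standard error exceeded that of 90.5% of the 200 genes nearest in mean count. The call was lost when p-values were adjusted by the Benjamini-Yekutieli method (0.17) and at a threshold of 0.01.

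The other DM domain genes of the mouse, which act in sex determination and in somite and neural development, had fewer reads. Of 9 listed, 7 had a row and 6 an adjusted p-value, with 2 lower, 0 higher and 4 not called in the authors' deposited table. Their median log2 fold change was -0.83. Dmrt3, which begins 5.97 kb beyond Dmrt1 on the same strand, was lower at -1.04 ± 0.34 with a mean count of 97 (authors' deposited table, adjusted p = 0.00957 by DESeq2). Dmrt2, 68.1 kb beyond Dmrt1, had -0.58 ± 0.29 and was not called in the authors' deposited table (adjusted p = 0.102, DESeq2). Dmrtc2, a testis-expressed DM domain gene, was lower at -1.06 ± 0.32 (authors' deposited table). The calls of Dmrt3 and Dmrtc2 were both lost under the Benjamini-Yekutieli adjustment (0.129 and 0.0526), and neither gene reached a mean count of 100, so 0 of the list were then lower. Kank1, the nearest protein-coding gene on the other side of Dmrt1 at 71.1 kb, had a value above 0, 0.48 ± 0.24, without a call in the authors' deposited table. Dock8, the next one on that side at 303 kb, was lower at -1.78 ± 0.26 in the authors' deposited table (adjusted p = 1.67e-10, DESeq2).

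Sohlh1 (chromosome 2, 25842995 to 25847248, minus strand) had the lowest fold change of the 7 genes. Its mean count was 975 in the authors' deposited table, with computed means of 354 in CDH1+/THY1+ cells and 1596 in CDH1-/THY1+ cells. The log2 fold change was -2.17 ± 0.28 in the authors' deposited table, a 4.51-fold lower level (adjusted p = 1.19e-12, DESeq2). Its fold change ranked 60 from the lowest among the 19211 genes tested. Its standard error exceeded that of 95% of the 200 genes nearest in mean count.

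Sohlh2 (chromosome 3, 55182028 to 55209957, plus strand) was lower by 2.60-fold. The mean count in the authors' deposited table was 2131, with computed means of 1185 in CDH1+/THY1+ cells and 3077 in CDH1-/THY1+ cells. Its log2 fold change of -1.38 ± 0.16 was the most precisely measured of the 7 in the authors' deposited table (adjusted p = 3.14e-16, DESeq2). The 95% intervals of Sohlh1 (-2.73 to -1.61) and Sohlh2 (-1.69 to -1.07) overlapped, and the difference between the 2 genes was not tested, since the table has no values per sample. Per kb of exon their levels were close in CDH1-/THY1+ cells, and in CDH1+/THY1+ cells Sohlh1 had the lower computed level: 275 for Sohlh1 and 501 for Sohlh2 in CDH1+/THY1+ cells, against 1238 and 1301 in CDH1-/THY1+ cells.

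Helix-loop-helix factors of this kind can also pair with the widely expressed class I factors, and the Id proteins, which lack a DNA-binding region, block such pairing. Of 7 genes of this group 2 were lower, 2 higher and 3 not called, with a median log2 fold change of 0.20 in the authors' deposited table. Tcf3 was lower at -0.52 ± 0.13 and Id4, a marker of spermatogonial stem cells, at -0.81 ± 0.33 in the authors' deposited table. Tcf4 was higher at 1.40 ± 0.37 and Id2 at 1.85 ± 0.35 in the authors' deposited table. Tcf12 had -0.11 ± 0.22 and was not called in the authors' deposited table. The call of Id4 (adjusted p = 0.0434, DESeq2) was lost under the Benjamini-Yekutieli adjustment (0.564).

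Stra8 (chromosome 6, 34920163 to 34939344, plus strand) had a mean count of 111 in the authors' deposited table. Its computed means were 78.3 in CDH1+/THY1+ cells and 144 in CDH1-/THY1+ cells. The log2 fold change of -0.88 ± 0.39 in the authors' deposited table had an unadjusted p of 0.0235 and an adjusted p of 0.0632 (DESeq2), above the threshold. The unadjusted 95% interval ran from -1.64 to -0.12. The standard error exceeded that of 88% of the 200 genes nearest in mean count.

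Genes of meiotic entry around STRA8 were mostly lower in CDH1+/THY1+ cells. Of 13 listed symbols 12 had a row (Meiosin, the other one, is a later name of the listed Gm4969), and of these 10 were lower, 0 higher and 2 not called in the authors' deposited table, with a median log2 fold change of -1.31. Gm4969, the gene of the STRA8 partner MEIOSIN, was lower at -2.01 ± 0.35 in the authors' deposited table (adjusted p = 1.97e-07, DESeq2), with a mean count of 43.4. Mei1, needed for meiotic DNA breaks, was lower at -2.40 ± 0.31 in the authors' deposited table. The synaptonemal complex genes Sycp2, Sycp3 and Sycp1, which hold paired chromosomes together, were lower at -1.77 ± 0.26, -1.68 ± 0.19 and -1.62 ± 0.23 in the authors' deposited table. Rec8, a meiotic cohesin gene that also responds to retinoic acid, had 0.39 ± 0.28 and was not called in the authors' deposited table.

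Genes that make, bind and sense retinoic acid were called in both directions. Of the 19 listed 18 had a row and 16 an adjusted p-value, and the authors' deposited table called 2 lower and 6 higher and left 8 uncalled, at a median log2 fold change of 0.52. Rarg, the retinoic acid receptor of spermatogonia, had 0.06 ± 0.24 and was not called in the authors' deposited table. Aldh1a2, which makes retinoic acid, was lower at -1.21 ± 0.23 in the authors' deposited table. The retinal and retinol enzyme genes Dhrs3 and Rdh11 were higher at 0.93 ± 0.24 and 0.89 ± 0.27 in the authors' deposited table. At a minimum of 2-fold, 1 gene was lower and 3 were higher.

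Lmo1 (chromosome 7, 109138572 to 109175207, minus strand) had a mean count of 102 in the authors' deposited table. Its computed means were 54.0 in CDH1+/THY1+ cells and 149 in CDH1-/THY1+ cells. The log2 fold change of -1.47 ± 0.34 in the authors' deposited table was a 2.77-fold lower level (adjusted p = 0.000115, DESeq2). An antisense gene, Gm44781, overlaps Lmo1, and where counting ignored strand their reads cannot be told apart. Of 13 other LIM-only genes and LIM-domain cofactors 12 had a row and 11 an adjusted p-value, with 2 lower, 0 higher and 9 not called and a median log2 fold change of -0.28 in the authors' deposited table. Ldb1, the protein that LIM-only factors bind, had a log2 fold change of 0.01 ± 0.13 at a mean count of 1780, without a call in the authors' deposited table (adjusted p = 0.979, DESeq2). The 2 lower genes were the LIM homeobox genes Isl1 and Lhx2, at -1.67 ± 0.43 (mean count 38.9) and -0.92 ± 0.34 (mean count 77.0) in the authors' deposited table. The call of Lhx2 was lost under the Benjamini-Yekutieli adjustment (0.288) and at a threshold of 0.01, which left 1 lower gene, and a minimum mean count of 100 left 0.

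Ly6k (chromosome 15, 74796874 to 74799986, minus strand) had a mean count of 8.76 in the authors' deposited table, which limits what can be measured. Its log2 fold change of 0.62 ± 0.62 in the authors' deposited table was not called (adjusted p = 0.477, DESeq2), and the 95% interval ran from -0.60 to 1.84. The means computed from that fold change were 10.6 in CDH1+/THY1+ cells and 6.91 in CDH1-/THY1+ cells. They understate the difference, because the reads given below place the populations further apart in any grouping of 3 against 3. At so low a mean, the whole reads of each library can be worked out. The table names no library, and none was assigned to a population from its values. Ly6k had 52 reads in all, with 25, 10, 5, 5, 5 and 2 reads in the 6 libraries. The single highest library therefore held 48.1% of its reads, at a normalised count of 25.6 against a median of 5.20 over the 6. Any 3 libraries that include it sum to at least 32.3 normalised counts, against at most 20.3 in the other 3, so the population that holds it has the higher Ly6k mean in any grouping of 3 against 3. That library also held most reads of some other genes with few reads. Of 4490 genes with a mean count under 4, 82 had at least 75% of their reads in 1 library, and for 61 of the 82 it was the library with the most Ly6k reads. Ly6k itself lies outside both of these limits. The median share of reads in the highest library was 37.5% over the 4490 genes. The part of that library in the value of Ly6k was not tested.

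**Figure D2:**
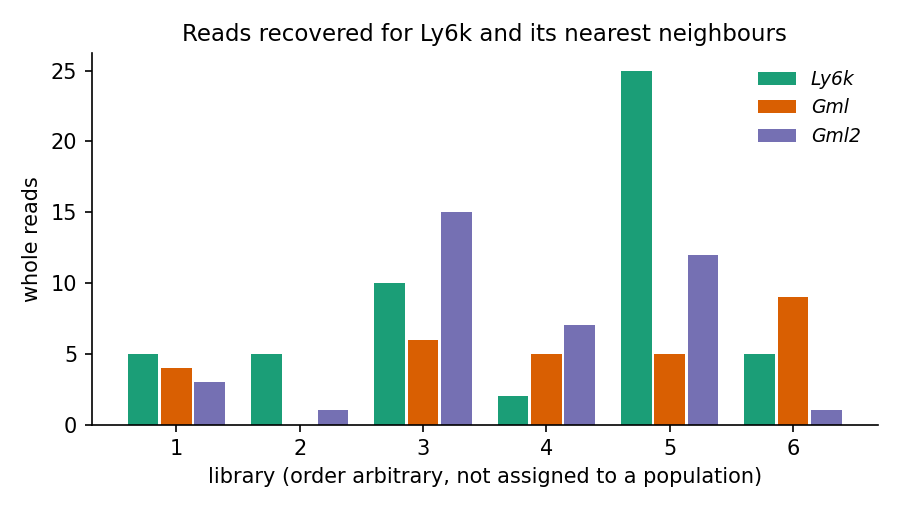
Whole reads (y axis) of Ly6k and of its neighbours Gml and Gml2 in each of the 6 libraries (x axis, in arbitrary order, not assigned to a population). Ly6k had 25 reads in 1 library and 2 to 10 in the others, Gml had 0 to 9 and Gml2 had 1 to 15.

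Ly6k lies in a cluster of related genes, and its neighbours also had few reads. Gml, 13.5 kb away, and Gml2 beyond it had 29 and 39 reads in all, and neither was called in the authors' deposited table (log2 fold changes of -0.68 ± 0.64 and -0.28 ± 0.64). An antisense gene, Gm17189, overlaps Ly6k, with the same limit on strand as for Lmo1. Tex101, whose protein associates with LY6K, was well expressed, with a mean count of 1407, and lower at -1.72 ± 0.17 in the authors' deposited table (adjusted p = 4.18e-22, DESeq2). Of 30 listed genes of the wider Ly6 and urokinase receptor family 19 had a row and 15 an adjusted p-value, with 1 lower, 4 higher and 10 not called in the authors' deposited table. Their median log2 fold change was 0.40, and 11 members of this family had no row. The 1 lower call became 0 under the Benjamini-Yekutieli adjustment, and a minimum mean count of 100 left 2 higher genes and 0 lower. Ly6e, a broadly expressed family member, was higher at 1.96 ± 0.32 and the urokinase receptor gene Plaur at 1.37 ± 0.31 in the authors' deposited table.

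Levels per kb of exon separated the 7 genes into an abundant and a scarce group. Dmrt1 had 1921 normalised counts per kb over all 6 libraries, Sohlh2 901 and Sohlh1 756, each above those of at least 95% of all genes. Lmo1, Stra8 and Dmrtb1 followed at 65.5, 61.6 and 50.4 per kb, and Ly6k was last at 10.6. No spread per sample is known, so the order among Lmo1, Stra8 and Dmrtb1 has no error attached. The 3 abundant genes and 2 of the scarce ones, Lmo1 and Dmrtb1, made up the 5 called lower.

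**Figure D3:**
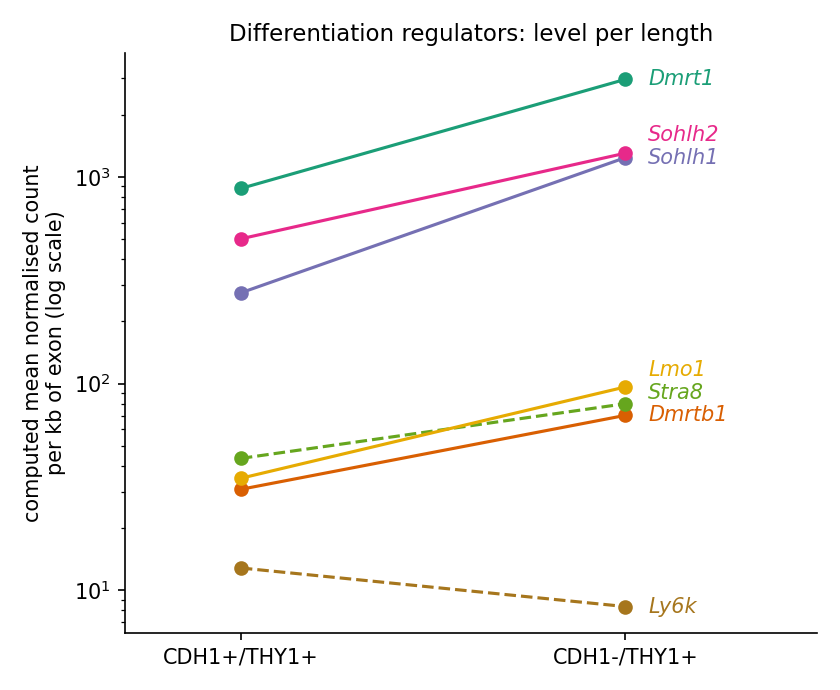
Computed mean normalised count per kb of exon (y axis, log scale) of each regulator in CDH1+/THY1+ and CDH1-/THY1+ cells. Solid lines join genes called lower, and dashed lines Stra8 and Ly6k. Dmrt1 has 879 in CDH1+/THY1+ and 2963 in CDH1-/THY1+ cells, and Sohlh1 lies beside Sohlh2 in CDH1-/THY1+ cells but below it in CDH1+/THY1+ cells.

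**Figure D4:**
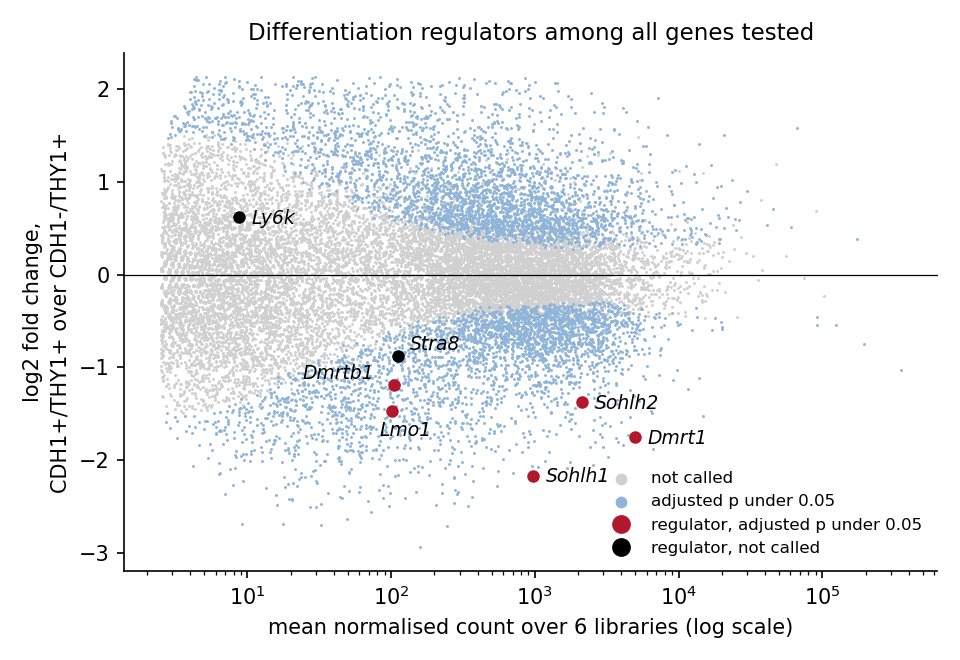
Log2 fold change (y axis), with CDH1+/THY1+ cells over CDH1-/THY1+ cells, against the mean normalised count over 6 libraries (x axis, log scale) for the 19211 tested genes, from the authors' deposited table. Called genes are blue, others grey, and the 7 regulators are large labelled points. The upper edge of the points at 2.14 is where the rows analysed end. Dmrt1, Sohlh1 and Sohlh2 lie at the lower edge of genes of like abundance, Lmo1, Dmrtb1 and Stra8 within the lower part, and Ly6k among uncalled genes with few reads.

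Other genes of differentiating spermatogonia did not all go the same way. The authors' deposited table called 6 of 10 lower and 1 higher and left 3 uncalled, at a median log2 fold change of -1.03. Of all tested genes, 16.4% were lower and 17.1% higher. The 3 uncalled genes were Ccnd2 (-0.64 ± 0.29), Sall4 (-0.36 ± 0.28) and Dnmt3b (-0.004 ± 0.37). The Y-linked ubiquitin enzyme gene Uba1y was lower at -1.75 ± 0.21, the X-linked meiotic gene Tex11 at -1.67 ± 0.20 and Dazl, an RNA-binding protein of germ cells, at -1.53 ± 0.21 in the authors' deposited table. Kit, the receptor that marks differentiating spermatogonia and is a known target of SOHLH1 and SOHLH2, was the higher one, at 1.31 ± 0.24 (authors' deposited table, adjusted p = 7.33e-07 by DESeq2). Genes of undifferentiated spermatogonia were lower too, 11 of 15 with 0 higher, and their median in the authors' deposited table was -1.14. Dazl and Id4 stand in 2 lists each. The transcription factor genes Sox3, Neurog3, Zbtb16 and Foxo1 of that list were lower at -2.33 ± 0.29, -2.00 ± 0.38, -1.86 ± 0.18 and -1.48 ± 0.23 in the authors' deposited table.

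The 10 listed germ cell markers were all lower in CDH1+/THY1+ cells, against 16.4% of all tested genes. They ran from -2.22 to -1.15 with a median log2 fold change of -1.74 in the authors' deposited table, among them Tdrd1 and Piwil2 of the piRNA pathway. The list does not stand for every gene of germ cells, since Kit, given above, was higher at 1.31 ± 0.24. The value of Dmrt1 differed from the median of the germ cell markers by -0.01, that of Sohlh1 by -0.43, and those of Lmo1, Sohlh2, Dmrtb1 and Stra8 by 0.27, 0.37, 0.55 and 0.86. Ly6k differed from it by 2.36. These differences were not tested, and the fold changes carry standard errors from 0.16 (Sohlh2) to 0.62 (Ly6k). Of 18 fibroblast markers, the feeder cell type, 6 were higher and 0 lower, and the median in the authors' deposited table was 0.77. The summed computed level of the fibroblast list was 391773 in CDH1+/THY1+ cells and 231188 in CDH1-/THY1+ cells, and none of its genes was without a row. These sums have no error attached. Their largest parts were the collagen genes Col3a1, Col1a2 and Col1a1, at 0.69 ± 0.33, 1.19 ± 0.59 and 0.81 ± 0.49, and none of these was called in the authors' deposited table. Of 10 Sertoli cell markers 8 had a row, with 1 lower (Trf), 1 higher (Clu) and the defining genes Amh (mean count 2.27) and Sox9 (67.1) uncalled in the authors' deposited table. The part of the cell mixture in the lower level of the regulators was not tested.

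**Figure D5:**
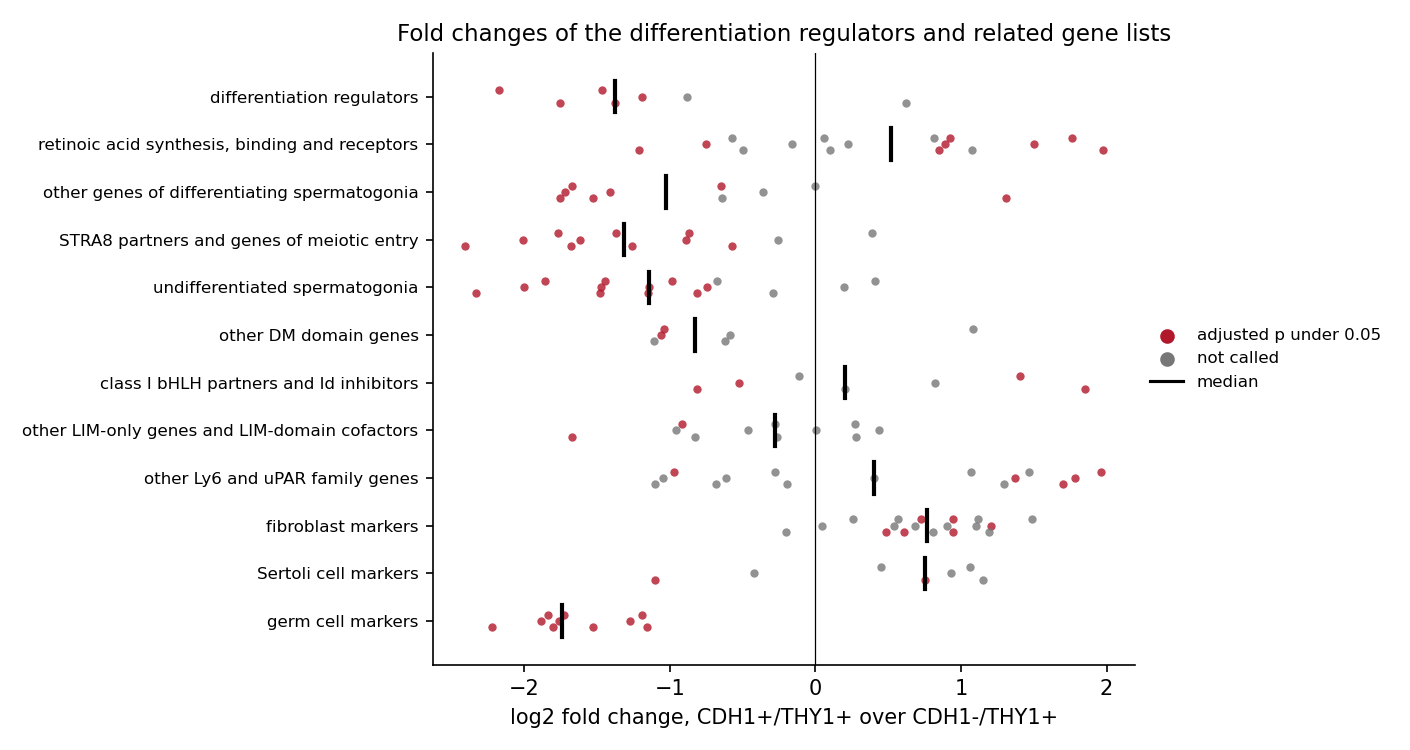
Log2 fold changes (x axis), with CDH1+/THY1+ cells over CDH1-/THY1+ cells, of the genes with an adjusted p-value in each list (rows), from the authors' deposited table. Each point is a gene, red where called, and black bars are medians. The medians lie below -1 for the differentiation regulators, for genes of meiotic entry, of differentiating and of undifferentiated spermatogonia and for germ cell markers, and above 0.5 for the retinoic acid, fibroblast and Sertoli cell lists.

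Genes next to the regulators on the chromosome were called in both directions, more of them lower than higher. The 2 nearest protein-coding genes on each side of the 7 regulators made 28 neighbours, of which 24 had a row and 23 an adjusted p-value. Of these 23, 8 were lower and 2 higher in the authors' deposited table, against 16.4% lower and 17.1% higher of all tested genes. Their median log2 fold change was -0.28. Next to Sohlh1, the potassium channel gene Kcnt1 (16.5 kb away) and Camsap1 (79.6 kb) were lower at -1.79 ± 0.39 and -0.81 ± 0.14 in the authors' deposited table. Next to Dmrtb1, the zinc finger gene Glis1 (41.2 kb) was lower at -1.97 ± 0.30 while the lipoprotein receptor gene Lrp8 (118 kb) was higher at 1.15 ± 0.22 in the authors' deposited table. Spg20, upstream of Sohlh2 by 44.7 kb, was higher at 0.58 ± 0.13, and Ccdc169, between them, was not called at -0.31 ± 0.53 in the authors' deposited table. Wdr91 and Slc23a4, on either side of Stra8, had -0.06 ± 0.16 and -0.01 ± 0.61 without a call in the authors' deposited table.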

How the data were processed

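Total RNA was sequenced from 3 CDH1+/THY1+ and 3 CDH1-/THY1+ samples after depletion of ribosomal RNA. The submitters' processing notes name Trimmomatic 0.32, TopHat2 2.1.1, featureCounts (Subread 1.5.0-p3), DESeq2 1.12.3, R 3.3.1 and build GRCm38.p4. The counting settings, strand use, annotation release and model formula are not given in the sources used here. The authors deposited, per the file headers, 1 signal per gene (the mean normalised count over all libraries), the log2 fold change and its standard error, the Wald statistic as a score, and a p-value with its adjusted p-value. Depth per sample is unknown. Standard errors did not exceed 0.64 at any abundance, so the fold changes of genes with few reads may understate the difference. Adjusted p-values, tested across all genes by the authors, were used as deposited and were present for 19211 of 22432 rows. Rows are ordered by fold change and stop at 2.14. Genes above that were not analysed here, so adjustments recomputed over the rows leave them out.

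Computed here, with Python 3.11.15, pandas 2.3.3 and numpy 2.4.6, were symbols and exon lengths from GENCODE M21 (22317 rows matched), 95% intervals, population means from the mean and fold change, motif matches, and Benjamini-Yekutieli and Benjamini-Hochberg adjustments over 22330 p-values (all rows that have one). Whole reads came from the 6 amounts by which a read moves a mean count. With them 1734 of 1734 rows averaging under 1.6 (100%) came out whole to within 2e-09, and size factors ran from 0.913 to 1.08. The adjustments and the recovery were checked on simulated data. The gene names and 8 pathway and 3 marker lists were chosen with earlier results of these data known. From each list, the rule named the called genes with the 4 largest changes at a mean count of at least 100 (values are not printed for all of them), and direct partners and neighbours. Isl1, Lhx2, Dmrtc2, Rec8, Amh, Sox9, Ccnd2, Sall4, Dnmt3b, Col3a1, Col1a2 and Col1a1 were named after their values were seen.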

Additional observations from a re-analysis of the deposited data

How the results depend on the processing

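No paired analysis was possible because the table holds 1 comparison and no value per library, so neither a fit by culture nor leaving out a library was run. The count of 5 lower regulators became 4 under the Benjamini-Yekutieli adjustment and at an adjusted p under 0.01, by loss of Dmrtb1 (0.17 and 0.0128), and stayed 5 under the Benjamini-Hochberg adjustment over all rows with a p-value, at a minimum of 2-fold, and at a mean count of at least 100. Stra8 and Ly6k were not called under any of these (Stra8 at 0.0771 and 0.816 under the 2 adjustments). Subtracting the median of abundant genes, 0.03, changed no direction. Over the 8 pathway lists together, 35 genes were lower and 13 higher, and every alternative stayed within 1.5 times of both counts. Counts of small single lists moved more: the lower calls among other DM domain genes became 0 under the Benjamini-Yekutieli adjustment and at a mean count of at least 100. Those among LIM genes became 1 and 0 there, and those among Ly6 family genes 0 under both. Of the promoter matches, the 100 bases nearest the start kept an E-box in 2 of 6 windows, the half-site in 1 of 2 and the DM core in 1 of 2. None of the E-boxes of Sohlh1 lay in those 100 bases. Ly6k is limited by its 52 reads. The end of the rows at 2.14 limits every count of higher genes, and no alternative tested it.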
